A study of Mus musculus with 4 samples.

Results

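The NuRD (nucleosome remodelling and deacetylase) complex genes Chd4, Hdac1, Hdac2, Mbd3, Mta1, Mta2, Mta3, Gatad2a and Gatad2b were examined in single mouse embryonic stem (ES) cells. They were chosen by symbol, and all 9 had a row among the 46078 mouse gene identifiers of both deposited count tables. The cells were wild-type E14 ES cells, a cell line derived from the mouse blastocyst, grown in 2i, a medium that holds ES cells in naive pluripotency by inhibiting MEK and GSK-3, to which the study's naive culture also adds leukaemia inhibitory factor (LIF). They were sorted either through a gate for small cells, set on forward and side scatter to take cells that leave mitosis or are in G1, or without a gate. Sorted cells were replated on laminin, and 6 h later, in either 2i or N2B27 (the base medium without these additions, in which exit from naive pluripotency begins), single cells were sequenced by Smart-seq2. There were 4 samples of 24 cells, and where 4 values are given in a row without names, they stand for small 2i, ungated 2i, small N2B27 and ungated N2B27 cells.

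NuRD joins nucleosome remodelling and histone deacetylation in a single complex. CHD4 is the ATPase that moves nucleosomes, and HDAC1 and HDAC2 remove acetyl groups from histones. The MTA proteins form the scaffold that holds the deacetylases, MBD3 or its relative MBD2 bridges the scaffold to the remodelling side, and GATAD2A or GATAD2B ties CHD4 to the rest. In ES cells MBD3-containing NuRD is known for restraining pluripotency genes and for letting cells respond to differentiation cues.

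Each group is 1 sample, so no test between groups was possible. All cells of a medium carry 1 library number, taken here as 1 plate and lane, so medium, plate and lane cannot be told apart. The gates lie on different index rows, which are the second indexes of the index pairs that name the cells. The column names do not show the well of a cell. Of 96 cells, 75 were kept: 12 of 2i small, 22 of 2i ungated, 20 of N2B27 small and 21 of N2B27 ungated. Kept cells held 1364155 to 4844170 gene counts. The 24 index pairs of a gate were the same on both plates. ERCC spike-in RNA made up a median 3.47% and 2.45% of counts in small cells in 2i and N2B27, and 1.28% and 1.14% in ungated cells. Expression-based phase assignment placed 6 of 12 small cells in 2i and 6 of 20 in N2B27 in G1, against 0 of 22 and 2 of 21 ungated cells. The phase method uses Chd4 and Rbbp4 among its marker genes. All 7 naive ES cell markers had counts in every group, and their summed level had group medians of 4131 to 6029 normalized counts. The summed level of the primitive endoderm, fibroblast and trophoblast markers had medians between 0 and 0.667 normalized counts. In single cells, however, these sums reached 354, 115 and 1035, and 3 or 4 of the 5 trophoblast markers had counts in each group.

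A pair of 2i small cells stood apart. One had 40.9% spike-in counts, against at most 17.1% elsewhere, and a size factor of 0.133, against at least 0.532 elsewhere, so that each of its counts weighed heavily after normalization. The other had 15712 genes detected, against at most 10335 elsewhere, and 0.0673% spike-in counts. Values of 2i small cells include all 12 cells unless stated. The log2 ratios of members and the numbers of cells past a level are also given without this pair, and so are the medians, correlations and family shares where they moved.

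Hdac1 shares nearly all of its coding sequence with the processed pseudogene Gm10093. Hdac1 (ENSMUSG00000028800) lies on the minus strand of chromosome 4, at chr4:129516104-129542713 in GRCm38. Gm10093 (ENSMUSG00000061062) is an intronless copy on the plus strand at chr17:78491582-78493025, and its exon overlaps no other annotated gene. The copy matched bases 85 to 1528 of the 2038-base Hdac1 transcript at 99.4% identity over 1444 bases, and the coding sequence runs from base 85 to base 1530. Only 9 bases differed, and the longest stretch without a difference was 450 bases. The window of 110 bases shown next lies wholly in coding exon 5 of 14 of Hdac1 (chr4:129522965-129523074) and in the copy at chr17:78491964-78492073. It is printed because it holds 6 of the 9 differences, marked by capitals, and thus shows how little sequence separates both rows of the table.
Hdac1: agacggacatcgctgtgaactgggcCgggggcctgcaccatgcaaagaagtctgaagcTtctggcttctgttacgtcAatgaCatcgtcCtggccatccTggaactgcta
Gm10093: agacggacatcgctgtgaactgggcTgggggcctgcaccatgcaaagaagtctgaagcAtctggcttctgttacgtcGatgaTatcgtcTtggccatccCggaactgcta
Counted from the first base of the Hdac1 transcript, with the Hdac1 base first, these are C492T, T525A, A544G, C549T, C556T and T566C. The others are G426A, T803C and C1254A.

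Most of the deposited counts of this pair sat on the copy. Over the kept cells of 2i small, 2609 counts were on Hdac1 and 23022 on Gm10093. In 2i ungated cells the numbers were 5545 and 55116. In N2B27 small cells they were 2512 and 18912, and in N2B27 ungated cells 3051 and 34737. The copy thus took 89.8%, 90.9%, 88.3% and 91.9% of the counts of both rows, and it exceeded Hdac1 in 11 of 12, 22 of 22, 19 of 20 and 21 of 21 cells. Its share was almost the same from cell to cell in ungated cells, at 88.3 to 92.1% in 2i and 90.2 to 93.8% in N2B27. In small cells it varied more, from 50% through a median of 89.1% to 92.4% in 2i and from 46.9% through 91.4% to 100% in N2B27. Whether these reads came from Hdac1 mRNA or from the copy cannot be told apart in these tables, and Hdac1 is therefore given both alone and with Gm10093 added. Over the other 8 members no pseudogene transcript aligned over 200 bases or more. Of the 10 pseudogenes that did align to Hdac1, 5 had a row in the tables, and Gm14524, Gm7146 and Gm8022 held 4, 9 and 12 counts and Gm28779 none.

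**Figure D1:**
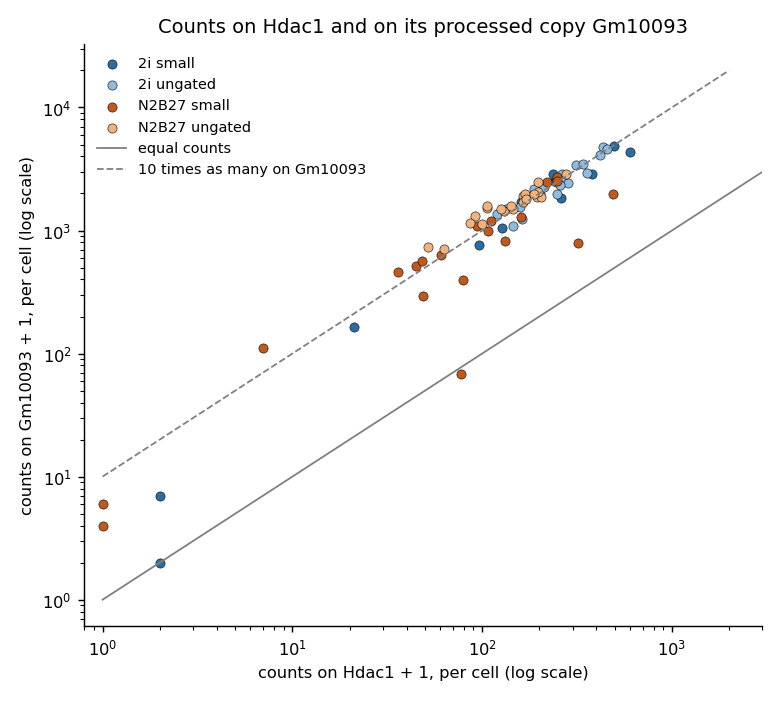
Counts on Hdac1 (x axis) and on Gm10093 (y axis) in each of the 75 kept cells, both as count + 1 on log scales and coloured by group. The solid line marks equal counts and the dashed line 10 times as many on Gm10093, and most cells lie along the dashed line.

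The 9 genes differed widely in level. Per kb of exon, over all kept cells, Mbd3 was the highest at a mean of 242 normalized counts, followed by Hdac2 at 166, Mta2 at 64.9, Mta3 at 62.6, Hdac1 at 54.1, Gatad2a at 31.1, Chd4 at 11.3, Gatad2b at 6.55 and Mta1 at 4.79. With Hdac1 as deposited, Mbd3 and Hdac2 took the top places in every group, with Hdac2 first in 2i small cells and Mbd3 first in the other groups. The first place of Hdac2 rested on the pair of cells that stood apart. Without them the 2i small means were 364 normalized counts for Hdac2, over 4474 exon bases, and 281 for Mbd3, over 1987. Per kb this puts Mbd3 first there too. With Gm10093 added, Hdac1 came first in every group, at 940.0, 693, 259 and 465 per kb. Chd4, Gatad2b and Mta1 filled the last 3 places in every group. The neighbours Mta2 and Mta3 differed by far less than their spread over cells, and Mta3 stood above Mta2 in both small groups. The mean of Mta1 over all kept cells, 14.9 normalized counts, fell under the minimum of 20 that 8757 genes reached, which served as background. The other 8 members passed this minimum.

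Chd4 (ENSMUSG00000063870, chr6:125095981-125130591) encodes the remodelling ATPase, and in small cells most of its counts came from few cells. In 2i small cells its normalized count ran from 0 through a median of 8.11 to 945, and 1 cell held 86.1% of the sum. In 2i ungated cells it ran from 0 through 52.4 to 325. N2B27 small cells ranged from 0 through 1.34 to 1127, and N2B27 ungated cells from 0 through 37.6 to 461. All 4 groups overlapped. The median was lower in small than in ungated cells in both media, whereas the mean was higher in small cells, at 152 ± 341 (SD, 20 cells) against 60.8 ± 103 (SD, 21 cells) in N2B27 and at 91.5 ± 269.5 (SD, 12 cells) against 62.0 ± 73.2 (SD, 22 cells) in 2i. A mean and a median that point in opposite directions describe a gene with low counts in most small cells and very high counts in a few.

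Of the deacetylases, Hdac2 (ENSMUSG00000019777, chr10:36974544-37001889) had a count in every kept cell. It ranged from 3.64 through a median of 408 to 6743 normalized counts in 2i small cells and from 201 through 738 to 1176 in 2i ungated cells. In N2B27 it ranged from 1.25 through 775 to 2090 in small cells and from 218 through 462 to 1706 in ungated cells. The value of 6743 belonged to the 2i small cell with the high spike-in share, which alone held 63.1% of the Hdac2 sum of its group. Hdac1, as deposited, ranged from 1.82 through 107 to 2855 in 2i small, from 84.4 through 234 to 310 in 2i ungated, from 0 through 76.2 to 400 in N2B27 small and from 35.4 through 122 to 225 in N2B27 ungated cells. The same 2i small cell held 66.4% of the Hdac1 sum. In the ungated groups Hdac1 had the smallest SD relative to its mean of any member, at 222 ± 56.8 (SD, 22 cells) in 2i and 129 ± 50.4 (SD, 21 cells) in N2B27, and they overlapped. With Gm10093 added, the medians were 1239, 2418, 779.7 and 1442 normalized counts.

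Mbd3 (ENSMUSG00000035478, chr10:80392539-80399550) gives this form of the complex its name. Its normalized count ran from 0 through a median of 13.5 to 849 in 2i small cells and from 1.38 through 435 to 1733 in 2i ungated cells. In N2B27 it ran from 0 through 364 to 1249 in small cells and from 0.771 through 514 to 1641 in ungated cells. The groups overlapped, but 4 of 12 2i small cells had no Mbd3 count, against 0 of 22 2i ungated cells. Its alternative, Mbd2, which defines a separate NuRD complex that binds methylated DNA, had means of 1.05 to 6.16 normalized counts. Mbd3 made up 99.1 to 99.9% of the summed level per kb of both genes across the 4 groups.

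The scaffold genes were not alike. Mta1 (ENSMUSG00000021144, chr12:113098278-113137206) had a count in 3 of 12, 6 of 22, 5 of 20 and 4 of 21 cells, so that its median was 0 in each group. Its highest values were 18.4, 135, 270 and 116 normalized counts. Mta2 (ENSMUSG00000071646, chr19:8941875-8952303) ran from 0 through a median of 17.5 to 372 in 2i small and from 0.689 through 427 to 759 in 2i ungated cells. In N2B27 small cells it ran from 0 through 2.38 to 824, and in N2B27 ungated cells from 0.694 through 267 to 1000. Both small groups thus had Mta2 medians far under those of the ungated groups. Mta3 (ENSMUSG00000055817, chr17:83706163-83821516) did not follow this order in N2B27, where its medians were 268 in small and 233 in ungated cells, with ranges of 0.821 to 1738 and 0.799 to 1452. In 2i its median was 86.9 in small cells, with a range of 0 to 890, and 228 in ungated cells, with a range of 1.36 to 579.

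Of the linker genes, Gatad2a (ENSMUSG00000036180, chr8:69907076-69996384) had medians of 35.9 in 2i small, 228 in 2i ungated, 2.95 in N2B27 small and 160 in N2B27 ungated cells, with highest values of 261, 1000, 837 and 579 normalized counts. Gatad2b (ENSMUSG00000042390, chr3:90293178-90363407) had medians of 5.53, 41.4, 1.78 and 44.0 in the same order and highest values of 264, 233, 408 and 449. For both genes the medians of the small groups lay under those of the ungated groups, and all ranges overlapped. Without the pair of cells that stood apart, the 2i small medians were 75.9 for Mta2, 114 for Mta3, 71.8 for Gatad2a, 94.8 for Hdac1 and 353 for Hdac2. Each was still under that of 2i ungated cells, and those of Mbd3, Chd4, Mta1 and Gatad2b did not move. An antisense gene, 4930537H20Rik, covers 2.16% of the Gatad2b exon length, and it is not given in the sources used here whether counting used strand.

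**Figure D2:**
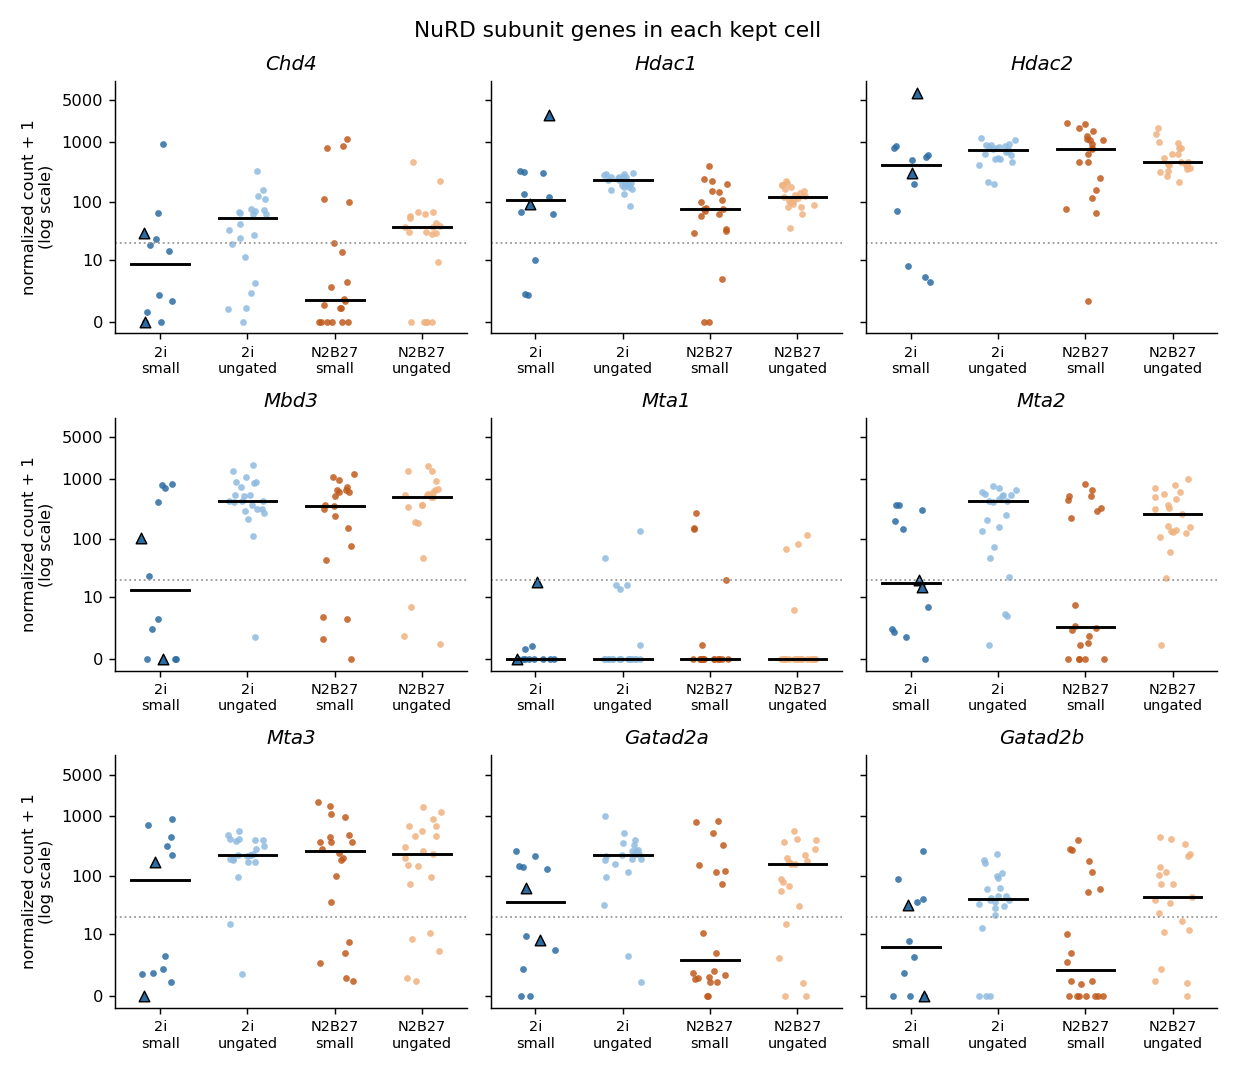
Normalized count + 1 (log scale, tick labels give the count) of each NuRD gene in each kept cell, by group, with the group median as a black bar and the dotted line at 20 normalized counts. Triangles are the pair of 2i small cells that stood apart. Many genes form a high and a low band of cells, and the low band is fuller in small cells.

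Most members were split between cells with high counts and cells with almost none, so the share of cells at 20 normalized counts or more was counted. In N2B27, 8 of 9 members reached this level in a smaller share of small than of ungated cells, and in 2i all 9 did. Over the 8757 background genes the same direction held for 75.8% in N2B27 and 84.8% in 2i, so the direction was common to most genes. The median difference of the members, small minus ungated, was -15 percentage points in N2B27 and -40.2 in 2i, against -12.1 and -21.2 over the background genes. Mta2 was at 20 or more in 8 of 20 N2B27 small cells (40.0%, exact 95% interval 19.1 to 63.9%) and in 20 of 21 N2B27 ungated cells (95.2%, 76.2 to 99.9%). In 2i it was 5 of 12 (41.7%, 15.2 to 72.3%) and 19 of 22 (86.4%, 65.1 to 97.1%). Gatad2a gave 8 of 20 against 16 of 21 in N2B27 and 6 of 12 against 20 of 22 in 2i. Chd4 gave 6 of 20 against 15 of 21 in N2B27 and 4 of 12 against 15 of 22 in 2i. Mbd3 gave 16 of 20 against 18 of 21 in N2B27 and 6 of 12 against 21 of 22 in 2i. Mta1 was the exception in N2B27, with 3 of 20 small and 3 of 21 ungated cells. Intervals here are Clopper-Pearson intervals and cover the counting of cells only.

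The counts of members held when every cell was thinned to 1000000 counts and read at 10 counts or more, with 8 of 9 members lower in small cells in N2B27 and 9 of 9 in 2i. Without the pair of 2i small cells 9 of 9 members were again lower in 2i. Among the cells that did reach 20, the median in N2B27 was higher in small than in ungated cells for 7 of 9 members, and over the background genes for 64.9%, so this too was common. These medians are over different shares of cells in each group. For Chd4 the median was 458 in the 6 small cells and 43.4 in the 15 ungated cells, and for Mta2 484 in 8 and 293 in 20 cells. In 2i it was higher in small cells for 2 members and lower for 6, against 53.8% of background genes higher, and Mta1 had no small cell at this level. Small cells also had more spike-in counts and fewer detected genes, with medians of 7603 and 7462.5 genes against 9515.5 and 8200. The part of RNA content in these shares was not tested. Mta2 also moved with the assigned phase among N2B27 small cells, with a mean of 1.26 normalized counts in 6 G1 cells, 328 in 11 S cells and 74.4 in 3 G2/M cells. This order did not hold in N2B27 ungated cells, where the means were 638 in 2 G1 cells, 572 in 4 S cells and 230.4 in 15 G2/M cells.

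**Figure D3:**
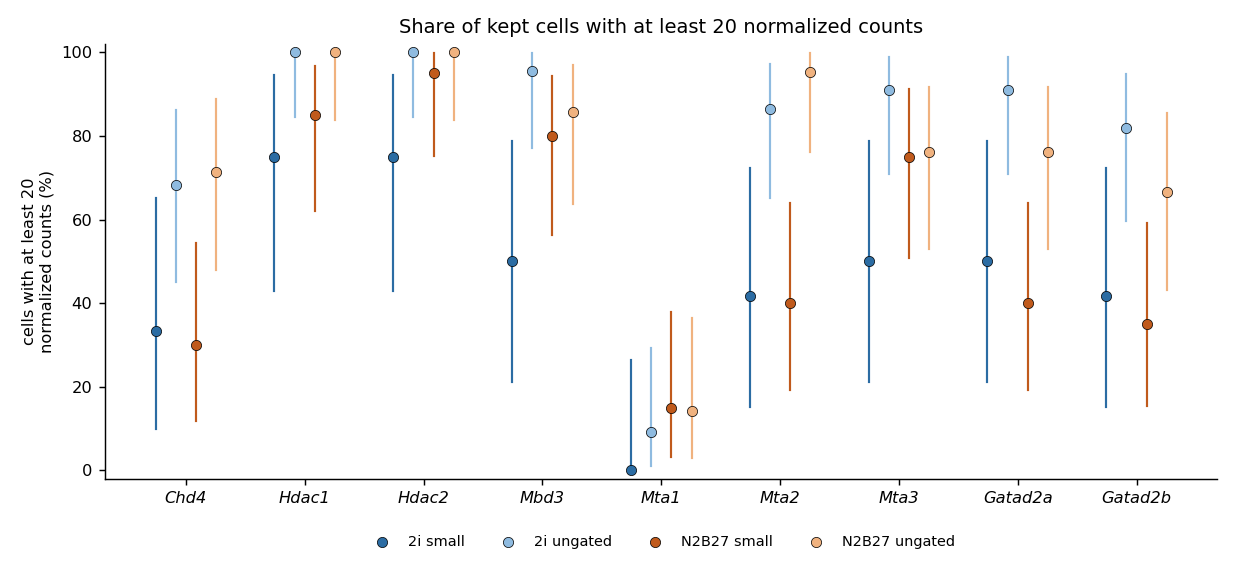
Percent of kept cells with at least 20 normalized counts for each NuRD gene (points) with exact 95% Clopper-Pearson intervals (lines), by group. The small groups lie under the ungated group of the same medium for all genes but Mta1 in N2B27.

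A single cell seldom showed the full set of subunits. All 9 genes had a count in 2 of 12, 4 of 22, 1 of 20 and 3 of 21 cells. Mta1 limited this number most, with a count in 3 of 12, 6 of 22, 5 of 20 and 4 of 21 cells. In every group the full set was rarer still, since other members were also missing from some of these cells. At 20 normalized counts or more, small cells held a median of 4.5 members in 2i and 5 in N2B27, and ungated cells 7.5 and 7. The median share of cells at this level was 50%, 90.9%, 40% and 76.2% over the members. Over the background genes it was 41.7%, 72.7%, 35% and 52.4%, so it was also lower in small cells. The fewest members per cell were 1 in 2i small, 5 in 2i ungated, 2 in N2B27 small and 4 in N2B27 ungated cells. Correlations between members across the cells of a group went in both directions. Over 36 gene pairs, the median Spearman correlation was 0.15, 0.03, 0.06 and -0.09 over 12, 22, 20 and 21 cells, which share plate, lane and depth differences. The pairs ranged from -0.56 to 0.90, from -0.42 to 0.53, from -0.40 to 0.40 and from -0.56 to 0.35. Of these pairs 3 were positive and 1 was negative in all 4 groups, and the others changed sign between groups. The highest value, 0.90 for Hdac1 with Hdac2, came from 2i small cells and was 0.88 without the pair of cells that stood apart, whereas the same genes gave 0.07, 0.05 and -0.39 in the other groups. By contrast Hdac1 and Gm10093 gave 0.99, 0.80, 0.86 and 0.90.

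The comparison of small with ungated cells in N2B27 asks how cells sorted as small, by a gate for mitotic exit and G1, differ from ungated cells while they leave naive pluripotency. When sequenced, 6 of the 20 small cells were assigned to G1, 11 to S and 3 to G2/M. Mean normalized counts of both groups were compared as a log2 ratio after adding 1 to each. This ratio had a median of -0.14 over the 9 members, -0.22 over the 8 members that reached the background minimum and -0.12 over the background genes. Chd4 was higher in small cells with a log2 ratio of 1.31 and Mta1, under the background minimum, with 1.15, and no member was at -1 or less. Of the background genes 11.9% were at 1 or more and 17.2% at -1 or less. The ratio of Chd4 ran from 0.72 to 1.87 when each cell was left out in turn, and that of Mta1 from 0.38 to 1.82. As the mean of the log2 values of single cells, that of Chd4 turned to -1.31. The other members ranged from -0.80 for Mta2 to 0.43 for Hdac2.

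The same comparison in 2i asks for the gate's difference in naive cells. The median was -0.66 over the 9 members, -0.43 over the 8 members that reached the background minimum and -0.40 over the background genes. The median over the 9 members turned positive with spike-in (0.22) and poscounts (0.18) size factors. Mta1 (-2.12), Gatad2a (-1.60), Mta2 (-1.52) and Mbd3 (-1.27) were at -1 or less, of which Mta1 was under the background minimum. None was at 1 or more, whereas the background shares were 28.8% at -1 or less and 15.4% at 1 or more. Without the cells that stood apart the same 4 members had -3.37, -1.43, -1.28 and -1.06. Hdac1 and Hdac2, at 0.69 and 0.35 with all cells, moved to -0.71 and -0.95 without them, and Chd4 from 0.55 to 0.81. The ratio of Chd4 rested on 1 other cell, since leaving out each gene's highest cell of each group gave -1.76. Mbd3, Mta2 and Gatad2a were each under -1 whichever single cell was left out. Under the other alternatives Mta2 stayed at or under -1 in 16 of 16. Mbd3 came to -0.83 with scran size factors, -0.64 with spike-in size factors and -0.46 in S phase cells, and Gatad2a to -0.62 with spike-in size factors. Fixed limits on cells, which kept 13 2i small cells, put Hdac1 at 3.75 and Hdac2 at 3.33.

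In small cells the comparison of N2B27 with 2i gave a median of 0.80 over the members and 0.11 over the background genes, and 7 of 9 members lay above the latter. Over the 8 members that reached the background minimum the median was 0.77. Gatad2b was at 0.80, Mbd3 at 0.84, Gatad2a and Mta3 at 0.86, Chd4 at 0.73 and Mta2 at 0.67. Mta1, under the background minimum, was at 3.54, the only member at 1 or more. Hdac1, at -1.77, was the only member at -1 or less. Of the background genes 23.3% were at 1 or more and 18.4% at -1 or less. Hdac2 was at -0.10. The ratio of Chd4 rested on few cells and ran from 0.14 to 3.36 when each cell was left out in turn. Without the 2i small cells that stood apart, the median was 0.63, Hdac1 moved to -0.36 and Hdac2 to 1.19, and with fixed limits on cells they were at -4.78 and -3.07. As the mean of log2 values of cells, the median over the members was -0.01 and over the background genes -0.15. Size factors from the spike-in counts gave -0.96 over the members and -1.55 over the background genes. Relative to the median of all genes the members were higher in N2B27 by 0.70 and by 0.59 with spike-in size factors, but by only 0.15 as the mean of log2 values, while the sign of the ratio itself depended on the scaling. Cells of the same group with different index rows had member ratios of a median absolute size of 1.80 in 2i small and 0.82 in N2B27 small cells, against 1.41 and 0.81 over the background genes. The differences between media in small cells were thus of the order of the spread between rows of 1 group.

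In ungated cells the same comparison of media was the quietest. No member reached 1 or -1, beside 7.61% of background genes at 1 or more and 9.89% at -1 or less, and the medians were -0.05 over the members and -0.03 over the background genes. Gatad2b, at 0.83, was past 1 without a filter on cells (2.20), with fixed limits on cells (3.35), with poscounts size factors (1.21) and in S phase cells (1.17). Mta2 was at 1.04 in S phase cells and Gatad2a at -1.31 as the mean of log2 values. In the main values Mta3 was at 0.50, and Hdac1 was lower at -0.78 and Gatad2a at -0.60. The ratio of Hdac1 stayed between -0.83 and -0.73 when each cell was left out in turn and was -0.57 with Gm10093 added. The member ratios between index rows had a median absolute size of 0.20 in 2i ungated and 0.51 in N2B27 ungated cells, against 0.37 and 0.51 over the background genes. Chd4, Mbd3 and Mta2 lay near 0, at -0.03, -0.10 and -0.05.

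**Figure D4:**
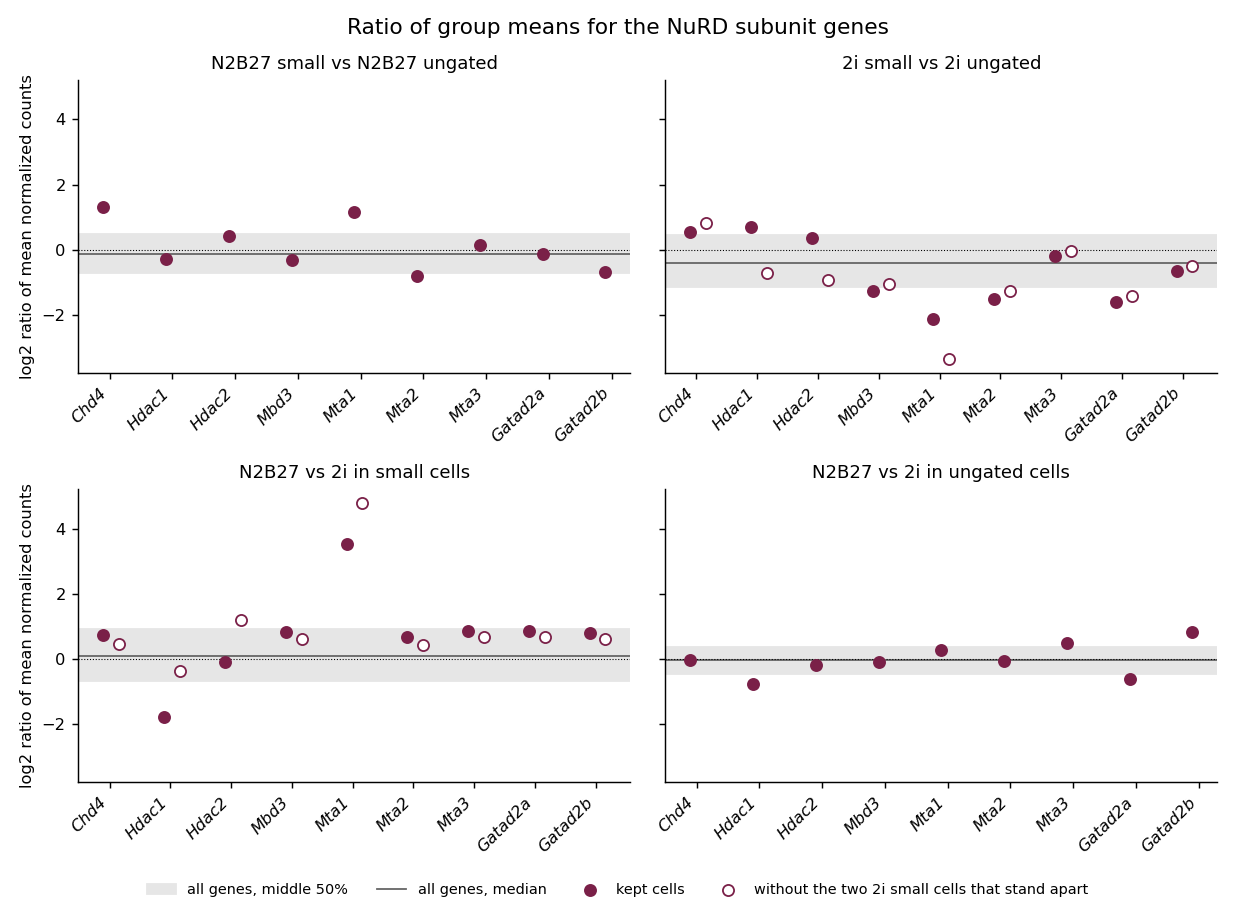
Log2 ratio of mean normalized counts for each NuRD gene in the 4 comparisons (filled points), with the median (line) and the middle 50% (grey band) of 8757 genes, and without the pair of 2i small cells that stood apart (open points). Hdac1 and Hdac2 are the members that change sign when these cells are left out.

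Within a cell the order of paralogues does not depend on its size factor, whereas shares of group means do. Per kb, Gatad2a made up 81.1%, 89.1%, 81.5% and 75.1% of the mean Gatad2 level. Its median share within cells was 87.7%, 91.7%, 95.1% and 72.4%. Gatad2a was above Gatad2b in 8 of 12, 21 of 22, 12 of 19 and 17 of 21 cells with a count of either. Mta2 and Mta3 shared the Mta level, with Mta1 at 0.716 to 7.06%. Mta3 took 59.3%, 36.3%, 58.3% and 45.2%, and so had the larger share in small cells of both media. Counted per cell, Mta3 was the highest of the 3 genes in 6 of 12, 6 of 22, 13 of 20 and 10 of 21 cells, and Mta2 in 6, 15, 6 and 11. Both led in as many cells as each other in 2i small cells, and only 2i ungated cells, for Mta2, and N2B27 small cells, for Mta3, had a clear leader. Without the pair of cells that stood apart, the 2i small share of Mta3 was 58.7%.

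For the deacetylases the order depended on Gm10093. As deposited, Hdac2 made up 65.7%, 70.9%, 85.9% and 78.6% of the level of both genes and was the higher in 11 of 12, 20 of 22, 17 of 20 and 20 of 21 cells. With the copy added to Hdac1 its share was 17.5%, 18.4%, 41.7% and 22.8%, and it was the higher in 8.33%, 0%, 40.0% and 4.76% of cells. In both countings Hdac2 had its largest share in N2B27 small cells.

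**Figure D5:**
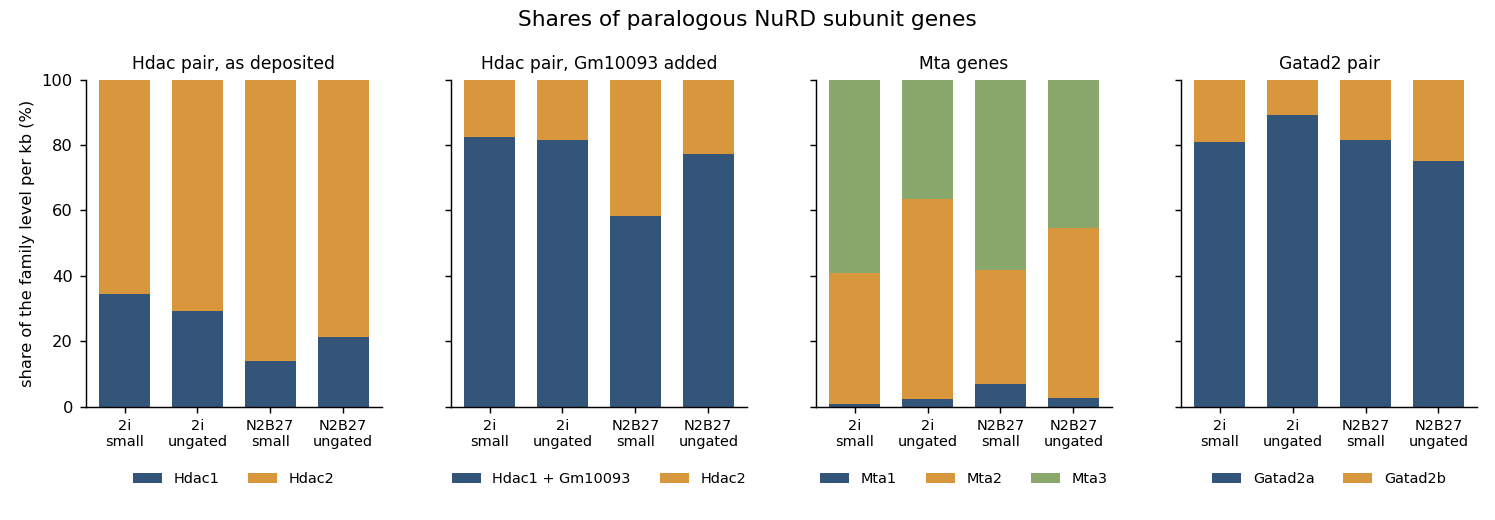
Share of each paralogue in the summed mean level per kb of its family (percent, stacked bars from 0 to 100) in the 4 groups, with the Hdac pair shown as deposited and with Gm10093 added to Hdac1. Hdac2 falls from 65.7 to 85.9% as deposited to 17.5 to 41.7% with the copy added.

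The remaining subunits of the complex ranged from high levels to no count. The histone chaperones Rbbp4 and Rbbp7, which NuRD shares with other complexes, had counts in every kept cell and means of 1171 to 1420 and 1158 to 1796 normalized counts. Genes on the opposite strand cover 18.0% of the Rbbp4 and 5.98% of the Rbbp7 exon length, and again the use of strand in counting is not given. The log2 ratios of Rbbp4 and Rbbp7 stayed between -0.63 and 0.24 in all 4 comparisons. Per kb, Rbbp7 had means of 398 to 618, whereas Rbbp4, at 134 to 162, was near Hdac2, at 138 to 199. In contrast, the alternative ATPase genes were scarcely seen: Chd3 had a count in 1 of 12, 2 of 22, 2 of 20 and 2 of 21 cells, and Chd5, a neural gene, in none, which allows up to 26.5%, 15.4%, 16.8% and 16.1% of cells with a count (exact 95% interval). Where Chd3 was seen most, in N2B27 ungated cells, its mean was 9.15 normalized counts (1.08 per kb), against 60.8 (7.58 per kb) for Chd4. Cdk2ap1, a small subunit, had means of 13.8, 16, 34.8 and 9.45 normalized counts (6.65, 7.68, 16.7 and 4.55 per kb).

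Genes around the complex were counted as lists, of which the genes that reached the background minimum were used. The extremes of each list often rested on 1 cell, so each is given with the value farthest from it when a single cell was left out. Of 8 proteins known to bind NuRD, 6 were used. Sall1, a zinc finger factor that recruits NuRD, had the largest log2 ratio in N2B27 small against ungated cells at 1.93, but -0.15 without the cell that held 79.0% of its sum. It was the lowest in 2i at -1.04 (-2.62), the highest between media in small cells at 1.2 (-0.88) and the lowest between media in ungated cells at -1.77 (-2.53). Its relative Sall4 was at 2.44 in 2i small against ungated cells and at -2.33 between media in small cells. Both values came from the 2i small cell with the high spike-in share, which held 83.1% of its sum, without which they were 0.01 and 0.11. Zfp296 was the lowest in N2B27 small against ungated cells at -0.83 (-0.54) and the highest between media in ungated cells at 0.19 (-0.10).

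Of 22 genes of other complexes that hold HDAC1 and HDAC2 (Sin3, CoREST, MiDAC and MIER), 17 were used. Their median log2 ratios were -0.19 in N2B27 small against ungated cells, -0.49 in the same comparison in 2i, 0.05 between media in small cells and -0.06 between media in ungated cells, near the background medians of -0.12, -0.40, 0.11 and -0.03. In these comparisons 2, 2, 4 and 0 were at 1 or more, beside 11.9%, 15.4%, 23.3% and 7.61% of background genes. At -1 or less were 6, 5, 3 and 2, beside 17.2%, 28.8%, 18.4% and 9.89%. Mier1 was the highest between gates in N2B27 at 2.94 (3.44) and the lowest between media in ungated cells at -2.43 (-2.93). The other extremes were Arid4a at -1.98 (-3.49) between gates in N2B27, Suds3 at 2.20 (0.76) and Ing1 at -1.86 (-3.06) between gates in 2i, Mier3 at 1.61 (3.62) and Sap30 at -1.99 (0.41) between media in small cells, and Sin3b at 0.89 (0.31) between media in ungated cells. The ratio of Sap30 came from 1 2i small cell, the one with the high spike-in share, which held 82.6% of its sum, and it turned positive without it.

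Of 5 genes that NuRD is known to restrain (Klf4, Klf5, Tbx3, Zfp42 and Ppp2r2c), 4 were used. Tbx3 was the lowest in small against ungated cells in both media, at -2.72 (-4.09) in N2B27 and -2.56 (-2.94) in 2i, and in N2B27 against 2i in small cells at -1.55 (-2.91). Klf4 was at 3.44 (2.24) in N2B27 small against ungated cells. It was at 0.44 (-2.75) in 2i, where 1 small cell held 92.6% of its sum, and at -2.43 (-1.15) between media in ungated cells, where 1 2i cell held 63.2%. Klf5 was the highest between media, at 1.97 (2.41) in small and 0.74 (0.28) in ungated cells. The medians of the 4 genes were -0.53 between gates in N2B27, -1.13 between gates in 2i, 0.46 between media in small cells and -0.50 between media in ungated cells. The background medians were -0.12, -0.40, 0.11 and -0.03. With 4 genes that span as much as -2.72 to 3.44, these medians do not describe a shared shift.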

How the data were processed

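The authors trimmed reads with Trim Galore 0.4.4, aligned them with GSNAP to mm10 (GRCm38) and counted reads per gene with HTSeq, and they deposited raw counts per gene and cell, 1 table per medium. Columns were matched to samples through the deposited list of sequencing runs. Of all counts, 72.4% were on genes, 3.85% on 92 ERCC spike-ins and 6.77% ambiguous between genes, so overlapping genes can be undercounted. These other rows were left out of the totals.

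Cells were kept within 3 median absolute deviations per plate for counts, genes and mitochondrial share (scater 1.30.1). Counts were divided by DESeq2 1.42.0 size factors, from 1227 genes counted in every kept cell, called normalized counts here. Phases came from cyclone (scran 1.30.0). Lengths are the union of exons in GENCODE M21, and copies were found with BLAST 2.17.0. With 1 sample per group no test was made, and past the fold means a log2 ratio of at least 1 or at most -1. Intervals cover counting error only, since reads are not independent molecules. The calculation was tested on simulated data. The simulated cells of a group shared 1 mean per gene, without the split into high and low cells seen for most members. That test therefore covers the arithmetic of the ratio and not its spread in these cells. All 9 members, the other subunits and the extreme genes of each list in each comparison are named, and members and lists were chosen with earlier results of these data known. Alternatives were other cell filters, size factors, summaries over cells, pseudocounts, S phase cells, thinned counts, single cells left out and Gm10093 added.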

Additional observations from a re-analysis of the deposited data

Results flagged for a closer look

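Mta1 went in opposite directions between gates in both media, with a log2 ratio of small to ungated cells of 1.15 in N2B27 and -2.12 in 2i. The difference between media was not tested. Both values rest on few cells, since Mta1 had a count in 5 of 20 and 4 of 21 cells in N2B27 and in 3 of 12 and 6 of 22 cells in 2i, and the highest cell of each group held 43.0 to 94.1% of the sum.

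The pseudogene Gm10093, outside the 9 members, held 131787 counts over the kept cells and 7.53 to 11.4 times the counts on Hdac1 in the 4 groups.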

How the results depend on the processing

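Of the alternative values of the members' medians, 52 stayed between the second lowest and the second highest of the 9 member ratios and 10 did not, and signs turned too. The sign of the median turned in 4 of 14 alternatives between gates in N2B27 (0.04 to 0.48), 2 of 17 between gates in 2i (0.18 and 0.22), 2 of 17 between media in small cells (-0.96 and -0.01) and 4 of 14 between media in ungated cells (0.01 to 0.39). For N2B27 against 2i in small cells, the median of 0.80 became 1.51 without a filter on cells, 0.91 with scaling by total counts, 0.90 with poscounts size factors, 0.90 from pooled counts, 1.05 without the highest cell of each gene and group, 1.05 in S phase cells and -0.96 with spike-in size factors. For small against ungated cells in N2B27 it became -0.78 with spike-in size factors and -1.19 as the mean of log2 values of cells, and in 2i -1.95 as the latter. Spike-in size factors moved the median of all genes to -0.82, 0.77, -1.55 and 0.05 in small against ungated cells in N2B27 and in 2i and in N2B27 against 2i in small and in ungated cells. Chd4 in N2B27 small against ungated cells turned to -1.31 as the mean of log2 values. Mta1 in 2i small against ungated cells turned to 1.67 with spike-in size factors and 2.13 in S phase cells, and in N2B27 against 2i in small cells to -1.02 with spike-in size factors. Thinning to 1000000 counts moved cells with a count to 58.3% for Mta3 in 2i small, 45% for Chd4 and 65% for Gatad2a in N2B27 small cells. With Gm10093 added, Hdac2 exceeded Hdac1 in 8.33%, 0%, 40% and 4.76% of cells. The causes were not tested. Adding Gm10093, leaving out both 2i small cells or each cell in turn, for list genes too, and the thinned count of cells were chosen after seeing the data. No paired analysis was possible because each group was 1 sample. Depth limits Mta1 most, with 50 to 874 counts per group.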
